A study of Homo sapiens with 18 samples.

Results

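Of the 11980 WHG-STARR-seq enhancers of LNCaP cells that overlapped a DNase I site, 5640 lay more than 1 kb from every annotated transcription start site and shared no base with an ATAC-seq peak of either TSA-treated or vehicle-treated cells. These ATAC-negative distal open enhancers made up 47.1% of all open enhancers (95% exact binomial interval 46.2 to 48.0%) and 75.4% of the 7478 distal open ones (interval 74.4 to 76.4%). The whole series held 94527 enhancers. The ATAC-negative enhancers were set beside 1286 distal open enhancers inside a vehicle ATAC peak (ATAC-positive enhancers), 552 distal open enhancers inside a TSA peak only, 4502 open enhancers at gene starts, and 78328 distal closed enhancers, which overlapped no DNase I site.

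LNCaP is an androgen-responsive human prostate cancer cell line. In WHG-STARR-seq, randomly sheared human genomic DNA is cloned behind a minimal promoter, and an active fragment raises transcription of itself from an episome, outside its native chromatin. The enhancer data came from 2 output libraries, harvested 72 h after transfection, and 1 input library of the plasmid pool. ATAC-seq was performed on 3 cultures treated with trichostatin A (TSA), a histone deacetylase inhibitor, at 100 ng/ml for 24 h and on 3 cultures treated with the DMSO vehicle. The mRNA-seq libraries came from 3 TSA-treated, 3 vehicle-treated and 3 untreated cultures. Transfected cells were kept until harvest in phenol red free medium with charcoal-stripped serum. The cells for TSA and vehicle were grown in such medium for 72 h before treatment. Expression was available here only as 1 average per gene, and whether the untreated libraries entered that average is not stated. The DNase I sites were those of the ENCODE pipeline for LNCaP cells and came from other cultures than the ATAC-seq libraries, so assay, culture, treatment and the cutoff of each list cannot be told apart in a region found by DNase I and not by ATAC-seq.

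Enhancers are DNA elements that bind transcription factors and raise transcription of genes at a distance. In the nucleus a bound enhancer is usually free of nucleosomes, which makes it accessible to DNase I and to the transposase of ATAC-seq, whereas an episomal reporter reads the activity of the sequence with little of that chromatin. A distal element can therefore be active in the reporter and be called by one accessibility assay and not by the other.

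The ATAC peak lists held 40995 peaks for TSA and 38813 for vehicle, each the highest scoring peaks of its 3 pooled libraries, so a region outside them may still have been accessible at a lower level. All enhancer and ATAC lists were made from pooled libraries and hold no value per library. Regions are not replicates of a condition, so every value below is a description with no test. Intervals cover counting error only and take fragments and regions as independent. Of 10 luminal prostate marker genes, all 10 were expressed at an average between 4.41 and 11.2 log2 CPM (reads per gene scaled to the size of the library, not to gene length). The endothelial genes PECAM1 and CDH5 averaged -2.27 and -2.10 log2 CPM, and the leukocyte genes PTPRC and CD68 averaged -1.89 and 3.17 log2 CPM. The basal genes TP63, KRT14 and KRT5 averaged -1.89, -0.86 and 6.23 log2 CPM. The fibroblast genes DCN, COL1A2, LUM and COL1A1 averaged -2.21, 0.37, 1.87 and 6.77 log2 CPM.

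Of the 10 strongest ATAC-negative enhancers, 8 held a match to the p53 binding site or were made of tandem repeats. p53 is the tumor suppressor that activates genes of cell cycle arrest and apoptosis, and it binds as a tetramer to a pair of adjoining half-sites of 10 bases each. LNCaP cells carry an intact p53 gene. Fold enrichment is output over scaled input fragments at the summit after 1 is added to each. The scaled input is the control value recovered from the deposited fold and p-value. By fold, 3 of the 10 highest held an exact match to the p53 consensus of 20 bases within the 300 bases around the summit. Of the 10, 1 more held a match with 1 mismatch. A further 4 of the 10 were tandem repeats, meaning that at least 50% of bases matched the base a fixed distance further on. By contrast, an exact p53 match was found in 0.195% of all ATAC-negative enhancers (interval 0.0974 to 0.349%) and a tandem repeat in 2.00% (interval 1.65 to 2.404%). The p53 consensus was searched in the same way as 16 other motifs, but mismatches and repeats were examined after the strongest enhancers had been seen.

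The 300 bases around the summit are shown for 5 of these 10 enhancers, chosen because they carry a p53 match or a repeat. All sequences are the plus strand of GRCh37 (hg19). Capitals mark the place with the best match to the p53 consensus in the first 4 and every copy of the most frequent word of 8 bases in the last.
DLEU1, chr13:51103515-51103814: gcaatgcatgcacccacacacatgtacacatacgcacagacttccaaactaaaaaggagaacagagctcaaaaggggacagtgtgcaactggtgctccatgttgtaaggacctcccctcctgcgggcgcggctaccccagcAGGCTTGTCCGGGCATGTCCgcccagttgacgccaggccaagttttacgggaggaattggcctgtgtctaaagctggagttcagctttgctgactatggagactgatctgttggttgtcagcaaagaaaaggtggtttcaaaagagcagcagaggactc
GDNF, chr5:37848024-37848323: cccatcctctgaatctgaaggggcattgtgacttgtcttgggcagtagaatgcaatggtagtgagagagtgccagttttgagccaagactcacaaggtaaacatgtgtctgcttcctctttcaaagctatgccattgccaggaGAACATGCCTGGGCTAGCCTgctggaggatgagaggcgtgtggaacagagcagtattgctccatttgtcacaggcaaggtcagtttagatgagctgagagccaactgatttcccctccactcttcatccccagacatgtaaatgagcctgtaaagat
IER5, chr1:181104188-181104487: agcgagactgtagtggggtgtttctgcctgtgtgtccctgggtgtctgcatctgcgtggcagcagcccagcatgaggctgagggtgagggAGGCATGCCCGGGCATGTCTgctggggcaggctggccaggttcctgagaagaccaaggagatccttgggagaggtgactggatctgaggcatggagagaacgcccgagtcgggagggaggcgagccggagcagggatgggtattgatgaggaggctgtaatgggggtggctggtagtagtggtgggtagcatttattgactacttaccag
ARMC2, chr6:109218594-109218893: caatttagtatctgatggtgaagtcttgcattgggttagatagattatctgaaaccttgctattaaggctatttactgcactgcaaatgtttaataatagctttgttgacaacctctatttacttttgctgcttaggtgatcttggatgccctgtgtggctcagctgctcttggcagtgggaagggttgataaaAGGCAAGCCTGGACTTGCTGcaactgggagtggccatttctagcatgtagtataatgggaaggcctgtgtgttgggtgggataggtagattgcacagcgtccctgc
ZNF777, chr7:149091292-149091591: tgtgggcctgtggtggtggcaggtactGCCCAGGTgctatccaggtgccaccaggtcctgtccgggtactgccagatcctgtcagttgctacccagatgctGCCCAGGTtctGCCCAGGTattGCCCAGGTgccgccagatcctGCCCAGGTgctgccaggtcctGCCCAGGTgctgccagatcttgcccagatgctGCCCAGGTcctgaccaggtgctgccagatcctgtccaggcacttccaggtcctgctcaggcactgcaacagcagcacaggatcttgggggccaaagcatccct

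The strongest ATAC-negative enhancer lay on chromosome 13 from 51103192 to 51104152, in an intron 128 kb downstream of the nearest start site of DLEU1, a noncoding RNA gene of a region often deleted in lymphocytic leukemia. At the summit it gave 512 output fragments (95% Poisson interval 469 to 558) over 14.1 scaled input fragments, a fold enrichment of 33.9. The center of its p53 match was 1.5 bases from the summit. The DNase I site it overlapped was only 53 bases wide with a score of 0.0348, close to the lowest score of 0.0344 among all open enhancers, and the nearest vehicle ATAC peak was 114 kb away.

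The enhancer at GDNF, which encodes a growth factor for neurons, lay on chromosome 5 from 37847654 to 37848649 in an intron, 8.01 kb upstream of a start site of the gene. It gave 459 output fragments (interval 418 to 503) over 14.1 scaled input fragments, or 30.4-fold, and its p53 match was centered 3.5 bases from the summit. GDNF itself averaged -1.84 log2 CPM, below the level of 1 CPM. The enhancer nearest IER5, an immediate early response gene, was intergenic on chromosome 1 from 181103787 to 181104774 and 46.4 kb downstream of the gene's start. It gave 633 output fragments (interval 585 to 684) against 20.1 scaled input fragments, which is 30.1-fold, and the vehicle ATAC peak nearest to it was 6.72 kb away. The enhancer in an intron near ARMC2, a gene of cilia and sperm flagella, was 30.0-fold enriched from 351 output fragments, with the p53 match of 1 mismatch centered 54.5 bases from its summit.

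The enhancer nearest ZNF777, a zinc finger gene, was 22.4-fold enriched and held 7 copies of its own most frequent word. Further tandem repeats were the enhancer near AFG3L1P, a pseudogene of a mitochondrial protease, at 20.2-fold, and that near D2HGDH, which encodes a mitochondrial D-2-hydroxyglutarate dehydrogenase, at 17.8-fold. The AFG3L1P enhancer held 12 copies of the AP-1 motif TGANTCA in repeats of 41 bases. Dimers of FOS and JUN proteins bind TGACTCA, which on the other strand reads TGAGTCA. The search let any base (N) stand in the center, so all AP-1 counts here may include other words. The 2 enhancers of the 10 with neither a repeat nor a p53 match of 1 mismatch or fewer were at LRIG3, a membrane protein gene, where the center fell in a coding exon (21.4-fold), and near JAKMIP3, a gene of a Janus kinase binding protein (19.9-fold).

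**Figure D1:**
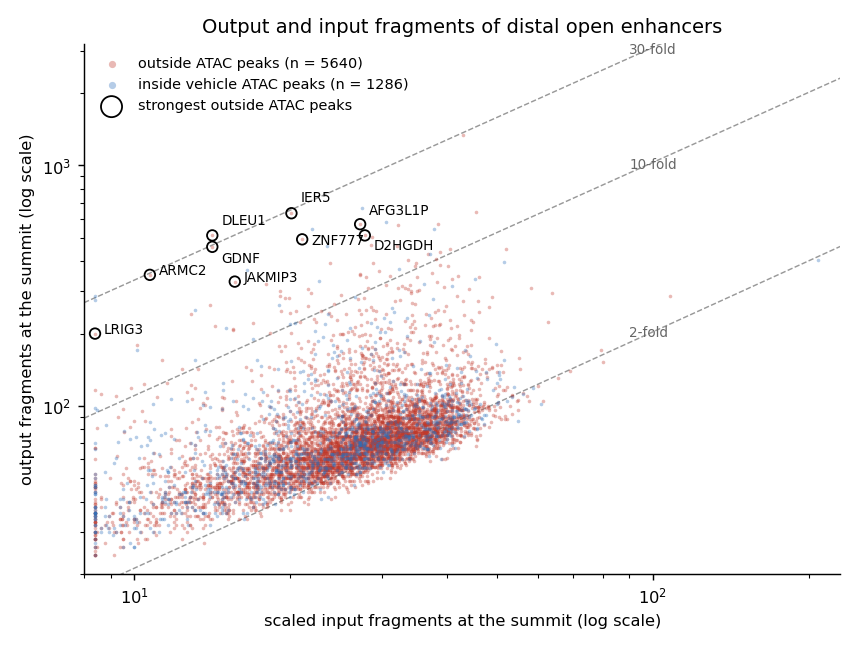
Output fragments of the 2 pooled output libraries (vertical axis, log scale) against scaled input fragments (horizontal axis, log scale) at the summit of each distal open enhancer, with 5640 ATAC-negative enhancers in red and 1286 ATAC-positive ones in blue. Circles mark 9 of the 10 strongest ATAC-negative enhancers with their nearest genes, and dashed lines mark fold enrichments of 2, 10 and 30. Both classes form the same dense cloud, and the circled ones lie between 17.8-fold and 33.9-fold.

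Exact p53 matches were found in 11 ATAC-negative enhancers, or 0.195% (interval 0.0974 to 0.349%), and all 11 were among the 500 strongest. The share was higher in distal closed enhancers, at 0.394% (interval 0.352 to 0.441%), and in all enhancers, at 0.355%. It was 0.0778% in ATAC-positive enhancers (interval 0.00197 to 0.432%) and 0.0666% in open enhancers at gene starts. Beside the matches at DLEU1, GDNF and IER5, the remaining 8 are shown with 15 bases on each side of the match, which stands in capitals. They are given because the letters of the match differ from element to element while each fits the consensus. They were picked for the match, but after their values had been seen. The bases right after the match are alike at TMEM217, FAM101A and NHS, where each holds catgg. Whether these elements belong to a common family of dispersed repeats was not examined.
S1PR3, chr9:91547891-91547940: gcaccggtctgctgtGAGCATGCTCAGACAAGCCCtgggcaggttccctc
TMEM217, chr6:37212738-37212787: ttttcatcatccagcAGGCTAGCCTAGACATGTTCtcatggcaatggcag
DLGAP5, chr14:55679577-55679626: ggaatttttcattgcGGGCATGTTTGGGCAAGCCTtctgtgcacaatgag
C9orf44, chr9:94909713-94909762: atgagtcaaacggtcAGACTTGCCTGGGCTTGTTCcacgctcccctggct
BRD1, chr22:50154099-50154148: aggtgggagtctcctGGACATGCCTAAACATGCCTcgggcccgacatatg
FAM101A, chr12:124758318-124758367: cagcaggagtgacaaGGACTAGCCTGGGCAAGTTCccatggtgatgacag
NHS, chrX:17566035-17566084: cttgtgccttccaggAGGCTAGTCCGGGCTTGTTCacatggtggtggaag
PRKAG2, chr7:151385335-151385384: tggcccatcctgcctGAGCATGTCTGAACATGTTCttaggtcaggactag

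These 8 enhancers are named by their nearest genes. S1PR3 encodes a sphingosine-1-phosphate receptor, and its enhancer was 17.5-fold enriched, with 242 output over 12.9 input fragments. The enhancer near TMEM217, a gene of a transmembrane protein, was 17.1-fold enriched, with 506 output over 28.7 input fragments. DLGAP5 encodes a protein of the mitotic spindle, and its enhancer was 16.3-fold enriched, with 180 output over 10.1 input fragments. The enhancers nearest C9orf44, BRD1, a gene of a histone acetyltransferase complex, FAM101A, NHS and PRKAG2, which encodes a subunit of the energy sensor AMPK, had fold enrichments of 15.8, 12.5, 8.66, 8.65 and 5.60. Thus the weakest of the 11 was enriched more than 5-fold, whereas the median over all ATAC-negative enhancers was 2.59. Of the 11 matches, 9 had their center within 50 bases of the summit and 7 within 10 bases.

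Fold enrichment was higher the closer the match to the p53 consensus. The median was 16.3 for the 11 ATAC-negative enhancers with an exact match (quartiles 10.6 and 23.8), 5.14 for 64 with 1 mismatch (quartiles 3.03 and 8.08), 3.55 for 230 with 2 mismatches (quartiles 2.69 and 5.24), 2.92 for 704 with 3 (quartiles 2.38 and 4.08) and 2.52 for 4631 with 4 or more (quartiles 2.20 and 2.99). From the exact matches to 4 or more mismatches, median output fragments were 352, 145, 97, 79 and 68. Median scaled input fragments were 19.5, 28.0, 28.0, 26.7 and 26.8, lowest with an exact match. The part of the input in the order of fold was not tested. The distal closed enhancers showed the same order of fold. Their medians were 8.67 for 309 exact matches, 5.73 for 898 with 1 mismatch and 3.06 for 65474 with 4 or more. In ATAC-positive enhancers there was 1 exact match, at 6.26-fold, and the 17 with 1 mismatch had a median of 7.07.

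**Figure D2:**
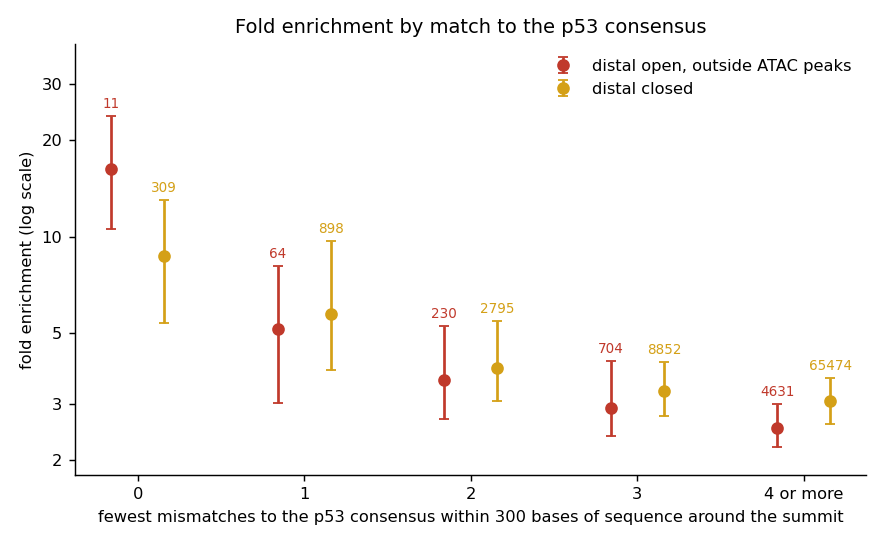
Fold enrichment (vertical axis, log scale) of ATAC-negative enhancers (red) and distal closed enhancers (yellow) by the fewest mismatches to the p53 consensus in the 300 bases around the summit (horizontal axis). Points are medians, bars run from the lower to the upper quartile, and the numbers of enhancers stand above the bars. The medians of the classes are 16.3 and 8.67 with no mismatch, and 2.52 and 3.06 with 4 or more.

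Matches with 1 mismatch or fewer were seen in 75 of 5640 ATAC-negative enhancers, or 1.33% (interval 1.05 to 1.66%). The share was 1.40% in ATAC-positive enhancers (interval 0.832 to 2.20%), 0.533% in open enhancers at gene starts, 1.54% in distal closed enhancers and 1.45% in all 94527 enhancers. In windows of the same 300 bases centered 1 kb to the left and 1 kb to the right of the ATAC-negative summits, such a match was found in 5 of 5640 on each side, or 0.0887% (interval 0.0288 to 0.207%), and an exact match in 0 of 5640 on each side, which allows a share of up to 0.0654%. Of the 75 matches at summits, 48 had their center within 50 bases of the summit and 19 within 10 bases. Among the 50 strongest ATAC-negative enhancers, 20 held a match with 1 mismatch or fewer, and among the 100 strongest 25 did.

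A word of 7 bases occurs in any sequence more often than a consensus of 20 bases, so their frequencies are not like measures. The AP-1 motif was far more frequent than the p53 match, with smaller differences in fold. It was found in 618 ATAC-negative enhancers, or 10.96% (interval 10.2 to 11.8%), against 13.7% of ATAC-positive enhancers (interval 11.9 to 15.7%), 22.3% of those inside a TSA peak only (interval 18.9 to 26.0%), 6.24% of open enhancers at gene starts and 11.8% of distal closed enhancers. All enhancers gave 11.6%, and the flanking windows 1 kb to the left and right of the ATAC-negative summits gave 7.41% and 6.83%. Median fold enrichment of ATAC-negative enhancers was 2.56 for the 5022 without the motif, 2.74 for 559 with 1 copy, 3.48 for 46 with 2 copies and 4.64 for 13 with 3 or more. In ATAC-positive enhancers the medians at 0, 1 and 2 copies were 2.68, 3.12 and 4.47. Of 1872 AP-1 matches within 500 bases of an ATAC-negative summit, 290 lay within 50 bases of it and 304 in the wider zone 400 to 500 bases away on both sides.

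**Figure D3:**
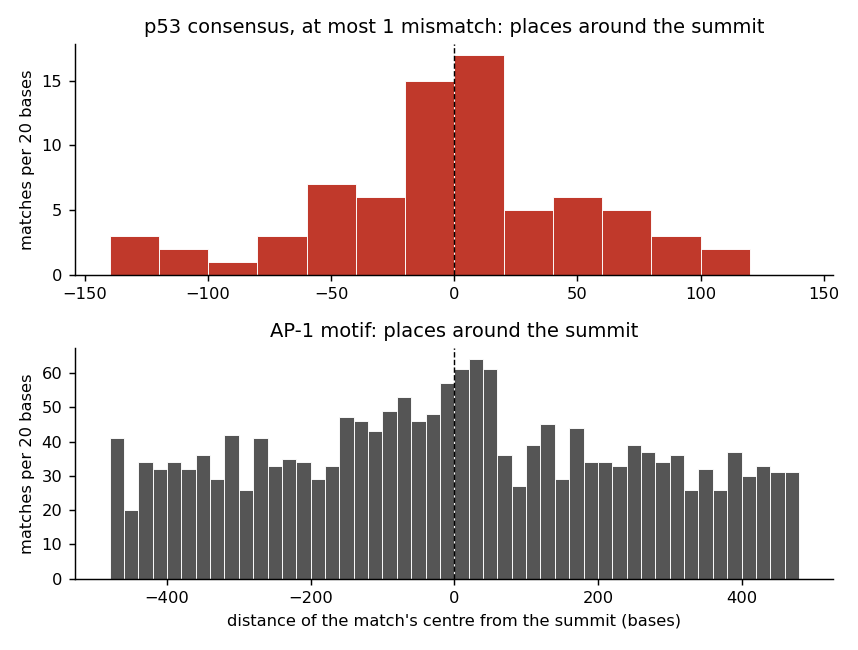
Number of matches per 20 bases (vertical axes) by distance of the match's center from the summit (horizontal axes, in bases) in ATAC-negative enhancers, for the p53 consensus with at most 1 mismatch (above, 75 enhancers with their best match each) and for the AP-1 motif (below, all matches). The p53 matches peak in the bins on either side of the summit, with 15 and 17 matches, whereas the AP-1 matches reach 64 in 1 bin near the summit, with between 20 and 41 in each bin over 400 bases away.

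Several other motifs had lower shares in ATAC-negative than in ATAC-positive enhancers. The consensus of CTCF, the insulator protein of chromatin loops, was found in 41 ATAC-negative enhancers, or 0.727% (interval 0.522 to 0.985%), against 33 ATAC-positive ones, or 2.57% (interval 1.77 to 3.59%). It was found in 0.190% of all enhancers. The ETS motif CCGGAAGT was found in 0.461% of ATAC-negative and 1.40% of ATAC-positive enhancers (intervals 0.301 to 0.675% and 0.832 to 2.20%), beside 0.675% of all. The forkhead motif TGTTTAC, read by FOXA1 and its relatives in prostate cells, was found in 3.44% of ATAC-negative enhancers (interval 2.98 to 3.95%). It was found in 5.05% of ATAC-positive ones (interval 3.92 to 6.397%), so the intervals just overlap, and in 4.71% of all. The Notch pathway motif of RBPJ, CGTGGGAA, was found in 0.745% and 1.63% (intervals 0.537 to 1.01% and 1.01 to 2.49%), beside 0.632% of all. The E-box CACGTG showed overlapping intervals between the classes, at 7.5% of ATAC-negative and 6.998% of ATAC-positive enhancers, both above the 4.74% of all enhancers. The androgen response element was found in 19 ATAC-negative enhancers, or 0.337% (interval 0.203 to 0.526%), 2 ATAC-positive ones and 0.167% of all. All motifs were searched on both strands as consensus letters in the 300 bases around the summit, and a match shows only that the letters are there. The median GC content of these bases was 57.3% in ATAC-negative enhancers and 48.7% in all enhancers, and its part in the shares was not tested.

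Across all ATAC-negative enhancers, reporter activity was modest. Median fold enrichment was 2.59 (quartiles 2.23 and 3.16, range 1.48 to 33.9), against 2.72 in ATAC-positive enhancers (quartiles 2.31 and 3.47), 3.12 in open enhancers at gene starts (quartiles 2.57 and 4.10) and 3.11 in distal closed enhancers (quartiles 2.62 and 3.72). The quartiles of these classes overlap widely. ATAC-negative enhancers gave a median of 70 output fragments over 26.8 scaled input fragments, ATAC-positive ones 68.5 over 24.3, and distal closed ones 45 over 13.3. A region with more input can be called at a lower fold, so these differences in input move with the differences in fold, and their part in them was not tested. At a q-value under 1e-10 for output over input, 44.2% of ATAC-negative enhancers were called (2493 of 5640, interval 42.9 to 45.5%), against 38.0% of all 94527 enhancers, 46.1% of ATAC-positive enhancers (interval 43.4 to 48.9%), 64.5% of open enhancers at gene starts and 35.8% of distal closed ones.

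The classes differed widely in the strength of the DNase I site. The median DNase I score was 0.0585 in ATAC-negative enhancers (quartiles 0.0433 and 0.0967), against 0.225 in ATAC-positive enhancers (quartiles 0.0781 and 0.586), 0.118 in those inside a TSA peak only and 0.274 in open enhancers at gene starts. Scores under 0.1 were seen in 76.3% of ATAC-negative and 31.3% of ATAC-positive enhancers. The sites of ATAC-negative enhancers were also narrower, with a median width of 443 bases against 888 bases, and they contained the STARR-seq summit in 58.2% of cases (interval 56.9 to 59.5%) against 70.8% (interval 68.2 to 73.2%). They were largely separate sites, since the 5640 enhancers fell in 5556 distinct DNase I sites with at most 3 enhancers in 1 site.

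Among distal open enhancers, the share outside ATAC peaks was lower in each bin of higher DNase I score. It was 90.7% of 1063 enhancers with a score up to 0.04 (interval 88.8 to 92.4%), 72.7% of 1117 with a score from 0.1 to 0.2 (interval 69.98 to 75.3%) and 18.2% of 292 with a score over 0.8 (interval 13.9 to 23.1%). The median fold of ATAC-negative enhancers was 2.64 at scores up to 0.04, 2.58 from 0.1 to 0.2 and 2.52 over 0.8, and that of ATAC-positive enhancers was 2.95, 2.90 and 2.42. The median in ATAC-negative enhancers was below that in ATAC-positive ones in each bin up to a score of 0.8 and above it beyond.

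**Figure D4:**
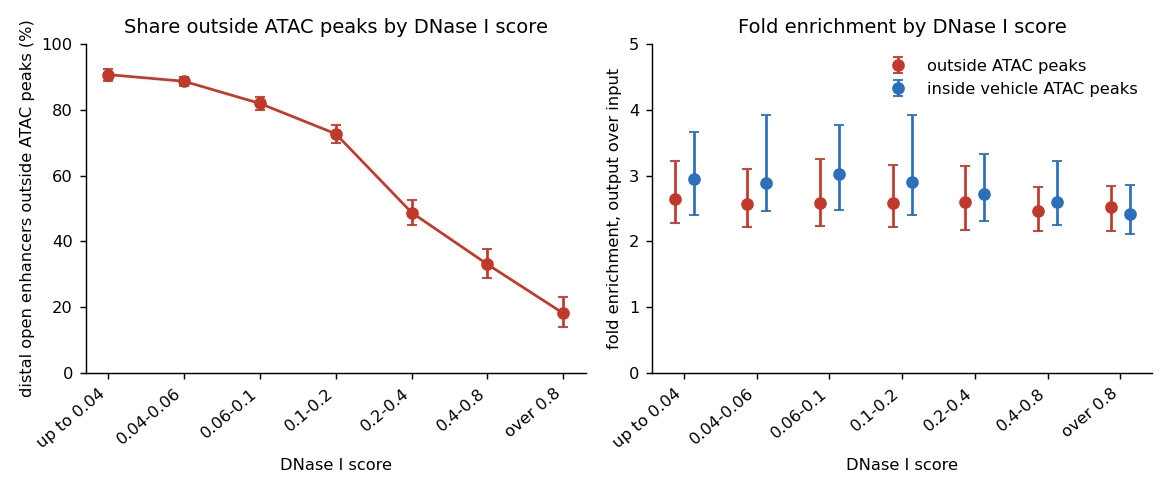
Left, percent of distal open enhancers that lay outside ATAC peaks (vertical axis) in bins of the DNase I score (horizontal axis), with 95% exact binomial intervals. Right, median fold enrichment with quartile bars in the same bins, for ATAC-negative (red) and ATAC-positive (blue) enhancers. The share outside ATAC peaks is 90.7% in the lowest bin and 18.2% in the highest, while the median fold of the ATAC-negative enhancers stays between 2.47 and 2.64.

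The ATAC-negative enhancers with the highest DNase I scores had fold enrichments between 2.42 and 2.93. A DNase I site of 20561 bases with a score of 1.82, upstream of a start site of BRSK2, a kinase gene of neuronal polarity, held a pair of them, with 97 output over 39.4 input fragments (2.42-fold) and 72 over 26.9 (2.61-fold). The next, in an intron of MICALL2, an actin regulator of cell junctions, had a score of 1.804 and 74 output over 24.6 input fragments (2.93-fold). At the other end, those with the lowest score of 0.0344 that come first by position lay near HIVEP3 (3.31-fold), FAM163A (2.69-fold) and PFKP, a glycolytic enzyme gene (4.10-fold), in DNase I sites of 40 to 58 bases.

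The ATAC-negative enhancers nearest to the limits of the definition had fold enrichments from 1.95 to 2.97, and the enhancers just beyond those limits had 2.13 to 4.42. The centers nearest to 1 kb from a start site were 1001 bases from the starts of a noncoding gene near LYL1 (2.55-fold) and of KIAA1530 (2.84-fold), and 1002 bases from that of KRT19, a keratin gene (1.95-fold). Just inside that limit and likewise outside ATAC peaks were enhancers at SYTL1 (4.42-fold, 999 bases), near IMPA2 (2.13-fold, 994 bases) and near ZNF14 (2.93-fold, 993 bases). The smallest gaps to an ATAC peak were 1 base near FRG1B (2.06-fold), 4 bases near F2RL1 (2.47-fold) and 7 bases near ATP2B2 (2.97-fold). The distal open enhancers that shared the fewest bases with an ATAC peak were those near EIF2S2 (1 base, 2.32-fold), TUG1 (1 base, 3.19-fold) and FLI1 (4 bases, 3.12-fold).

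The median distance from an ATAC-negative enhancer to the nearest vehicle ATAC peak was 15.5 kb (quartiles 5.97 and 38.6 kb), and to the nearest TSA peak 12.9 kb (quartiles 4.95 and 31.0 kb). The same distances were 28.9 kb and 26.5 kb for distal closed enhancers. Of the ATAC-negative enhancers, 7.09% lay within 1000 bases of a peak of either list and 3.81% lay over 100 kb from both. The median fold was 2.60 in the first group and 2.76 in the second, with widely overlapping quartiles (2.23 to 3.14 and 2.399 to 3.70). The median level of the nearest gene was 3.86 log2 CPM in the first group and 0.72 log2 CPM in the second.

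Most ATAC-negative enhancers lay within genes. Their centers fell in introns in 61.3% of cases (interval 59.97 to 62.5%), between genes in 28.7%, in coding exons in 3.97%, in 3′ UTRs in 3.90%, in noncoding exons in 1.86% and in 5′ UTRs in 0.266%. ATAC-positive enhancers fell in introns in 59.6% of cases (interval 56.9 to 62.3%), and distal closed enhancers in introns in 55.6% and between genes in 40.7%. The nearest gene of the expression table averaged a median of 3.30 log2 CPM for ATAC-negative enhancers (quartiles -0.47 and 5.47), against 4.56 for ATAC-positive enhancers (quartiles 1.00 and 6.05), 5.10 for open enhancers at gene starts and 2.52 for distal closed enhancers. These levels are the authors' average over their libraries and not the level in vehicle-treated cells alone. Over all 20526 genes with a start site the median was 3.21 log2 CPM, and over the 3254 different nearest genes of ATAC-negative enhancers it was 3.37 log2 CPM. In 5 groups of 1128 ATAC-negative enhancers, from the weakest to the strongest fold, the median level was 3.31, 3.34, 2.97, 3.15 and 3.58 log2 CPM. These medians lie close together beside the quartiles of the weakest group (-0.32 and 5.44) and of the strongest (-0.45 and 5.61).

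The ATAC-negative enhancers had 3254 different nearest genes, of which 2148 had 1 enhancer each. The genes with the most were FAM19A5, a secreted brain protein gene, with 28 on chromosome 22, MIR153-2, a microRNA gene inside PTPRN2, with 26 on chromosome 7, KCNAB2, a potassium channel subunit gene, with 19 on chromosome 1, GPR133, an adhesion receptor gene, with 16 on chromosome 12, and SHANK2, a synaptic scaffold gene, with 15 on chromosome 11. The 28 near FAM19A5 spread over 670 kb with fold enrichments from 1.68 to 8.59 (median 2.38) and a median GC content of 61.2%, and no ATAC-positive enhancer had FAM19A5 as its nearest gene. Near KCNAB2, 4 ATAC-positive enhancers were found. FAM19A5 averaged 0.24 log2 CPM, whereas KCNAB2, GPR133 and SHANK2 averaged 5.22, 2.33 and 5.38 log2 CPM. MIR153-2 averaged -2.27 log2 CPM, but these were mRNA libraries, so that value need not give the level of a microRNA.

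Of these loci, those of FAM19A5, MIR153-2 and GPR133 came within 1.82, 1.35 and 2.01 Mb of a chromosome end, while the enhancers near SHANK2 were at least 64.1 Mb from one. The median distance to a chromosome end was 12.9 Mb for ATAC-negative enhancers, 18.1 Mb for ATAC-positive enhancers and 31.8 Mb for distal closed enhancers. Within 5 Mb of a chromosome end, a stretch that makes up 7.75% of the genome, lay 33.4% of ATAC-negative enhancers (1882 of 5640, interval 32.1 to 34.6%), 28.8% of ATAC-positive enhancers (interval 26.3 to 31.3%), 29.5% of those inside a TSA peak only, 14.3% of open enhancers at gene starts and 7.17% of distal closed enhancers (interval 6.99 to 7.35%). This comparison was chosen after the genes with the most enhancers had been seen. The ATAC-negative enhancers were also rich in GC, with a median of 57.3% in 300 bases (quartiles 52.3 and 61.7%) against 56.3% in ATAC-positive and 47.7% in distal closed enhancers, and GC content moved with position. Within the range from 50 to 55% GC, 26.4% of ATAC-negative enhancers (interval 23.8 to 29.0%), 17.5% of ATAC-positive ones (interval 12.9 to 22.9%) and 8.20% of distal closed ones lay within 5 Mb of an end. At 65% GC or more the shares were 56.7%, 57.9% and 20.1%. CpG was scarce in all distal classes, with a median ratio of observed to expected CpG of 0.259 in ATAC-negative, 0.271 in ATAC-positive and 0.190 in distal closed enhancers, against 0.733 in open enhancers at gene starts. Scaled input was higher at higher GC content among ATAC-negative enhancers, with medians of 14.9 fragments under 45% GC and 32.9 fragments at 65% or more, while the median fold was 3.17 and 2.45.

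**Figure D5:**
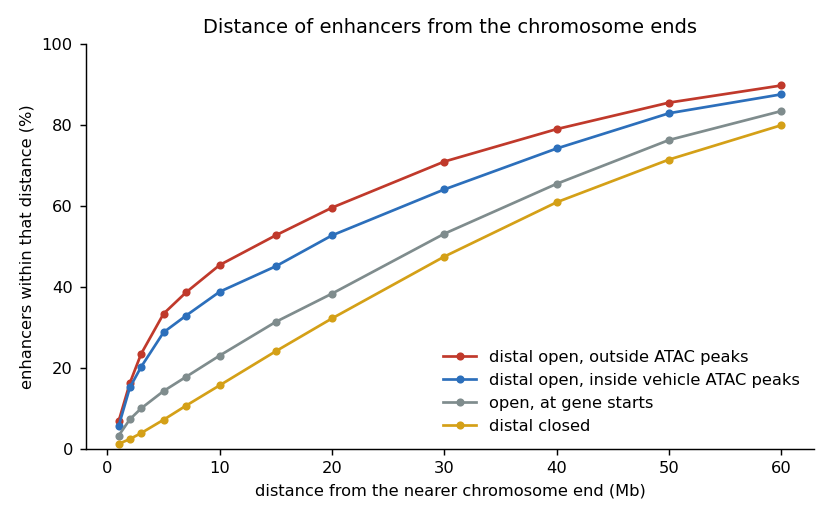
Percent of enhancers (vertical axis) that lie within a given distance of the nearer chromosome end (horizontal axis, in Mb), for ATAC-negative (red) and ATAC-positive (blue) distal open enhancers, open enhancers at gene starts (gray) and distal closed enhancers (yellow). Within 5 Mb the curves stand at 33.4%, 28.8%, 14.3% and 7.17%.

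Among the gene lists examined, the strongest ATAC-negative enhancer lay at a p53 target. CDKN1A, which encodes the cell cycle inhibitor p21, had an enhancer on chromosome 6 from 36650077 to 36650925, 4.003 kb downstream of a start site and centered in the 5′ UTR of an annotated transcript. It gave 248 output over 22.9 input fragments, or 10.4-fold (interval 9.16 to 11.8), rank 60 of 5640, with a best p53 match of 3 mismatches. CDKN1A averaged 7.61 log2 CPM. BBC3, an apoptosis gene, and FDXR, the other p53 targets with one, had enhancers of 2.31-fold and 1.82-fold. In all, 3 of 16 p53 target genes were the nearest gene of an ATAC-negative enhancer, or 18.8% (interval 4.05 to 45.6%), against 15.9% of all 20526 genes.

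Of 10 luminal transcription factor genes, 5 had an ATAC-negative enhancer nearest to them, with 7 enhancers in all and a median fold of 2.61. GATA3, itself at -0.03 log2 CPM, led with 3.18-fold, GATA2 followed with 2.88-fold and GRHL2 with 2.76-fold, while HOXB13, the homeobox factor of the prostate at 8.81 log2 CPM, had 1 at 2.41-fold 23.8 kb upstream, and SPDEF had 1 at 2.12-fold. Of 14 androgen-responsive genes, 3 did, namely FKBP5, a chaperone gene (3.09-fold), TMPRSS2, a luminal protease gene (2.76-fold), and PMEPA1 (2.52-fold). Of 10 AP-1 subunit genes, FOS, FOSL2 and ATF3 had such enhancers at 2.74-fold, 2.997-fold and 3.501-fold. Of 16 early response and stress genes, IER2 and KLF4 had the strongest at 3.72-fold and 3.71-fold, and SQSTM1 and TRIB1 had 1 each at 2.17-fold and 2.43-fold. Of 12 basement membrane genes, 4 did, with NID1, a linker of laminin and collagen at -2.04 log2 CPM, at 3.48-fold, and LAMA5, COL4A2 and HSPG2 between 2.24-fold and 2.66-fold. Of 12 epithelial adhesion and keratin genes, CLDN4 (2.49-fold), KRT8 (2.16-fold) and KRT19 (1.95-fold) did, and of 12 neuronal adhesion genes, L1CAM did, at 3.44-fold. The median fold of each list lay between 2.16 and 3.44, beside 2.59 over all ATAC-negative enhancers. The share of genes with one lay between 8.33% of the neuronal adhesion genes (interval 0.211 to 38.5%) and 5 of 10 luminal transcription factors (interval 18.7 to 81.3%), beside 15.9% of all genes.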

How the data were processed

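For the STARR-seq lists, the authors used Bowtie on hg19 and removed duplicates by Picard. For the output, this was done within each of several indexed PCR libraries per replicate. Fragments repeated between indexed libraries were kept. The authors merged the output replicates and ran MACS2 with the input as control at a q-value under 0.05. The deposited lists give each enhancer's fold ratio, −log10 p-value and −log10 q-value, and open enhancers carry the score of an ENCODE DNase I site. ATAC-seq reads were aligned by Bowtie, those left unmapped were trimmed by Cutadapt and aligned by Bowtie2, and Picard and Fseq followed, with read ends shifted to the transposase cut, and the deposited lists hold an Fseq score per peak of the pooled libraries. For mRNA-seq, the authors used TopHat and edgeR, and only their deposited log2 CPM average was used, for which the libraries averaged are not stated. Their table also holds log2 fold changes, likelihood ratios and p-values of TSA over vehicle, and a further table holds the same for ATAC sites. None of these was used. Tool versions were not stated in what was read, and library depth is unknown here.

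Enhancers were taken once each by peak name, with the highest score where several DNase I sites overlapped. Start sites came from the GENCODE basic set on GRCh37 (110199 sites), and 20526 of 22336 genes of the expression table were matched to one by symbol. Output and scaled input fragments were recovered from the deposited fold and p-value, and all output values came within 0.0410 of a whole number. The lowest scaled input was 8.40 in every class, so it may be a floor of the peak caller. The folds of the enhancers at LRIG3 and FKBP5 rest on this lowest value. PCR reads without molecular identifiers are not independent molecules, and the same fragment could be counted in several indexed libraries. The Poisson intervals treat the counts as independent, so they may be too narrow, and those of fold hold the input fixed. Overlap means 1 shared base or more. Motifs were searched in 300 bases around the summit. The exact binomial and Poisson intervals are at 95%. Python 3.11.15, numpy 2.4.6, pandas 2.3.3, scipy 1.17.1, pysam 0.24.0, samtools 1.23.1 and matplotlib 3.10.9 were used. The recovery of fragments, the distances to peaks and start sites, the p53 and AP-1 searches, the repeat share and the binomial intervals were tested on simulated data.

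The enhancer class, the gene lists and the motifs were chosen with earlier results of these data known. The rule for named regions took the 10 ATAC-negative enhancers with the highest fold, the 3 with the highest and lowest DNase I score, the 3 on each side of each limit, the strongest near a gene of each list, the 5 genes with the most enhancers and the list genes with one. Of the 10, 1 is not reported here. The enhancers with an exact p53 match were added after their values were seen, as were mismatches, repeats, flanking windows and the distance to chromosome ends.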

Additional observations from a re-analysis of the deposited data

How the results depend on the processing

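The 10 results fixed at the start were recomputed under 66 alternatives, of which 49 stayed within the 95% interval of the value given, or for the number of enhancers within 1.5 times. The share of open enhancers that were distal and outside ATAC peaks was 49.6% with distal set at 500 bases, 43.1% at 2 kb, 45.4% with ATAC peaks extended by 500 bases, 51.7% with only vehicle peaks counted, 48.5% with at least 50% of the shorter region shared and 45.6% at a q-value under 1e-05. With distal set at 500 bases the share in introns was 59.9%, and with extended ATAC peaks the median distance to a vehicle peak was 16232.5 bases. With only vehicle peaks counted, the median DNase I score was 0.0605 and the share with an AP-1 motif 11.97%. At a q-value under 1e-05, the median fold was 2.68 and the share with a q-value under 1e-10 was 50.8%. With only genes of at least 0 log2 CPM, the median level of the nearest gene was 4.69 log2 CPM. In a window of 500 bases 15.9% of ATAC-negative enhancers had an AP-1 motif and the median GC content was 57.0%, and in the whole peak these were 19.8% and 56.7%. The direction of several shifts was fixed by the setting. A wider or narrower limit of distance or overlap can only raise or lower the share of open enhancers in the class. Keeping only a q-value under 1e-05 can only raise the share under 1e-10. Leaving out genes under 0 log2 CPM cannot lower the median level, and a window of 500 bases holds every AP-1 match of the shorter one. The causes of the other shifts were not tested.

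Settings added after seeing the data gave a p53 match in 0.195% with no mismatch and 5.41% with 2 or fewer, a tandem repeat in 1.12% with 60% of bases repeated, and 16.3% within 2 Mb of a chromosome end. No value could be recomputed without a replicate, and no paired analysis was possible because the lists hold pooled libraries and no result comes from a test. The fewest output fragments were 24 in an ATAC-negative enhancer and 18 in a distal closed one, and library depth is unknown.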

Other observations

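The 113 enhancers with a repeat had a median fold of 2.77 (quartiles 2.37 and 4.64), against 2.58 (quartiles 2.23 and 3.14) for the other 5527, and 72.6% of them lay within 5 Mb of a chromosome end, against 32.6%. Their median GC content was 60.7%, against 57.3%. A repeat was found in 2.00% of ATAC-negative enhancers (95% exact binomial interval 1.65 to 2.404%), 1.17% of ATAC-positive ones (interval 0.654 to 1.92%), 2.17% of those inside a TSA peak only (interval 1.13 to 3.77%) and 0.772% of distal closed ones (interval 0.712 to 0.836%).

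The density of ATAC-negative enhancers differed between chromosomes. Chromosomes 22 and 19 held 6.55 and 6.53 per Mb, and chromosome 17 held 5.57, against 0.59 on chromosomes 13 and X and 0.0505 on chromosome Y, which held 3. Their share of all enhancers was 21.1% on chromosome 22, 15.2% on chromosome 19, 13.8% on chromosome 17, 4.17% on chromosome X and 2.37% on chromosome 13. The median fold on chromosome X was 3.25 over 91 enhancers, above the 2.38 to 2.83 of the other chromosomes. Scaled input was not compared between chromosomes, and its part in this difference was not tested. A median of 23.8 kb separated an ATAC-negative enhancer from the next one, and 16.4% had another within 5 kb.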
